A study of Mus musculus with 10 samples.

Results

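Macrophages of every tissue share a small set of transcription factors that make them macrophages and carry further factors that fit them to the organ. The genes of 9 such factors were followed in macrophages sorted from mouse lung: Pparg, Maf, Spi1, Cebpa, Cebpb, Zeb2, Bhlhe40, Bhlhe41 and Spic. They were taken as a named list out of 24538 genes in the count files, and all 9 were among the 11571 genes tested. PU.1, the product of Spi1, opens chromatin at myeloid enhancers and works there with the basic leucine zipper proteins C/EBP-alpha and C/EBP-beta. PPAR-gamma is the lipid-sensing nuclear receptor that alveolar macrophages need to clear surfactant, and in their precursors it is induced by GM-CSF and TGF-beta. BHLHE40 and BHLHE41 are repressors that bind E-box DNA, and in alveolar macrophages they hold down MAF, whereas ZEB2 is a zinc finger factor and SPI-C a relative of PU.1 known from macrophages that recycle the iron of red blood cells.

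The study compared metastasis-associated macrophages (MAMs) with resident alveolar macrophages (RAMs), both from wild type C57BL6/J mice that were 8 to 10 weeks old per the labels. MAMs were CD45+, F4/80+, LY6C-, MRC1+, CD11B+ and CD11C- cells with high forward scatter, sorted from dissected lung metastases after E0771-LG mouse mammary tumour cells had been injected into the tail vein of females aged 6 to 8 weeks. RAMs came from normal lungs by the same gate with CD11C+ and CD11B- in its last step, so that the groups differ in sorting gate, tissue and tumour together and these cannot be told apart. There were 5 libraries in each group, and each metastasis sample pooled tissue from 2 to 4 mice per the labels, so its spread is one between pools. Transcription inhibitors were present during digestion of the tissue.

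The members lie on 5 chromosomes of GRCm38, at these positions in the GENCODE annotation. Pparg spans chr6:115360951-115490399 on the plus strand, with 8 exons in its longest transcript. Bhlhe40, at chr6:108660629-108666925, and Bhlhe41, at chr6:145858243-145865558, are on the same chromosome, on the plus and minus strand. Spi1 (chr2:91082390-91115756), Cebpb (chr2:167688915-167690418) and Zeb2 (chr2:44983632-45117395) are on chromosome 2. Cebpa (chr7:35119293-35121928), Maf (chr8:115682942-115707794) and Spic (chr10:88674772-88685015) stand alone on their chromosomes. Cebpa, Cebpb and Maf have a single exon in their longest transcript. Of the genes in the count files, Mir5129 shares bases with Zeb2 on the same strand. Cebpb shares bases with Tmem189, Bhlhe40 with 0610040F04Rik and Zeb2 with Zeb2os, all on the opposite strand. The strand setting of the counting was not given in the sources used here, so reads cannot be assigned between such partners. Zeb2os itself held 200 to 1204 counts per library, against 27198 to 77145 for Zeb2.

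DNA just upstream of transcript starts was read from RefSeq on GRCm38.p6, where 6 of the 9 members matched with 11 windows. Stretches outside annotated exons are shown for members that fell (Pparg, the middle of its 3 starts, and Bhlhe41) and for members that rose (Zeb2, the first of its listed starts, and Spic), since these factors bind short letters that can be looked for in each other's upstream DNA. They are chr6:115362099-115362291 (plus strand), chr6:145865559-145865670 (minus), chr2:45117443-45117692 (minus) and chr10:88683024-88683273 (minus). The Pparg and Spic stretches lie inside the gene spans given above, which come from GENCODE, whereas the starts used here come from RefSeq. Capitals mark every match to 6 motifs searched on both strands: CACGTG (bound by BHLHE40 and BHLHE41), CAGGTG (ZEB2), AGGAAGT (PU.1 and relatives), TTGCNNAA (C/EBP), TGCTGA (MAF) and AGGTCA (nuclear receptors).
Pparg: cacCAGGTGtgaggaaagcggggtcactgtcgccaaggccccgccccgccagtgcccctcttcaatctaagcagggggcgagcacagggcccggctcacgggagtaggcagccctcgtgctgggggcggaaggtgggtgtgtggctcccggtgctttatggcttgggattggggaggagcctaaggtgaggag
Bhlhe41: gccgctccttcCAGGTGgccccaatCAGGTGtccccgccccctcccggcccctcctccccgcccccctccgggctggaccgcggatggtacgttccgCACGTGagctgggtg
Zeb2: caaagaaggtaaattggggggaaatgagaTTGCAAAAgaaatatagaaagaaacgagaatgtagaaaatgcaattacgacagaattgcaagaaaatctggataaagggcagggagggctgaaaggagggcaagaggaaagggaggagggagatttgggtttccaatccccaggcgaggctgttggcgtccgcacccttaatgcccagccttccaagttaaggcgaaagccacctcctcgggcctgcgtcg
Spic: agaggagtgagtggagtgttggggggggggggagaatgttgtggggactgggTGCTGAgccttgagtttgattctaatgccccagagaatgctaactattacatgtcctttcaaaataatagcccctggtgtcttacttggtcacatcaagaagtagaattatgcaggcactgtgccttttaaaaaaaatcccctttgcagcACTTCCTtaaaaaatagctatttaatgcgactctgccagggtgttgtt

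The Bhlhe41 stretch held CACGTG 153 bases before the start and CAGGTG at 239 and 225 bases before it. The Spic stretch held the PU.1 letters on the opposite strand 48 bases before its start and TGCTGA 198 bases before it. The 6 motifs did not overlap each other in these stretches. Of 32851 upstream windows of 250 bases in the table, CACGTG was present in 6.02%, AGGAAGT in 7.69%, TTGCNNAA in 9.56%, AGGTCA in 14.0%, TGCTGA in 16.1% and CAGGTG in 17.2%. AGGTCA also lay 9 bases before the same Pparg start, past the end of the printed stretch, and 28 bases before another of its starts, and the last of its starts had TTGCNNAA at 215 and 16 bases before it. The upstream windows of Cebpa and Cebpb held none of the 6, nor did those of the other listed starts of Zeb2. A match of letters is not a site shown to be bound.

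Library totals on genes lay between 50746305 and 87523247 counts. Levels below are CPM, counts relative to the library's total over the tested genes alone, scaled by TMM, unless FPKM, which also divides by transcript length, is named. Of the listed markers, 11 of 13 alveolar macrophage markers were lower in MAMs (summed 534 to 917 CPM against 14465 to 17687 in RAMs) and 10 of 11 monocyte or recruited macrophage markers were higher (9971 to 11063 against 526 to 702). These lists hold the genes of the sorting gate, Itgax (CD11C) and Itgam (CD11B), whose direction the sort set, and Itgam alone averaged 6270 CPM in MAMs. Without them, a choice made after seeing the data, 10 of 12 alveolar markers were lower in MAMs (380.4 to 677 CPM against 13355 to 16713) and 9 of 10 monocyte or recruited macrophage markers higher (4123 to 4484 against 464 to 636). Of 5 markers of red pulp macrophages, 4 were higher in MAMs (2727 to 3259 CPM against 155 to 293), mostly through Hmox1. Dendritic cell markers summed to at most 14.2 CPM in MAMs and 29.5 in RAMs, lymphocyte markers to 22.1 and 19.6, lung epithelial markers to 40.1 and 50.1, and red blood cell markers to 5.19 and 5.28, with 4 of 5 of the last at 0 in every library of each group. Neutrophil markers gave 104 to 247 CPM in MAMs against 93.1 to 121 in RAMs, with 3 of 4 tested higher in MAMs and 1 lower. Endothelial and stromal markers gave 41.5 to 81.4 CPM in MAMs against 127 to 215 in RAMs, but Vwf carried the RAM sum (151 CPM against 19.3 in MAMs) and the other 4 of 5 tested were higher in MAMs, with a median log2 fold change of 2.86 over the 5. Keratins and other epithelial or tumour cell markers gave 9.84 to 24.1 CPM in MAMs against 589 to 702 in RAMs, Krt19 being the most abundant. The part of other cells in the results was not tested. Among 115 genes above 1000 CPM in MAMs, none had a RAM level below 0.912% of the MAM level, and the 5th percentile of that share was 1.02%. In the other direction, the lowest MAM share was 1.07% of the RAM level among 80 genes above 1000 CPM in RAMs.

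Of the 9 genes, Maf, Spic and Zeb2 were higher in MAMs and Pparg, Bhlhe41 and Cebpa lower. The test was the quasi-likelihood test of edgeR over all genes, with a threshold of 0.05 on the p-value after Benjamini-Hochberg adjustment. Spi1, Cebpb and Bhlhe40 did not pass. Thus 6 of 9 passed where 56.2% of all tested genes did, with 28.9% of all genes higher and 27.3% lower, so the count by itself does not set the members apart. With a fold change over 2 as well, 3 were higher and 2 lower, where 15.3% and 15.1% of all genes were (30.3% in either direction), with Zeb2 only just over that limit. The libraries of the groups did not overlap for the 6 that passed, and did not overlap for 44.9% of all genes. The median log2 fold change of the members was -0.16, against -0.015 over all genes. RNA from sorted cells was measured in bulk, so fewer cells with a transcript and less transcript per cell cannot be told apart.

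**Figure D1:**
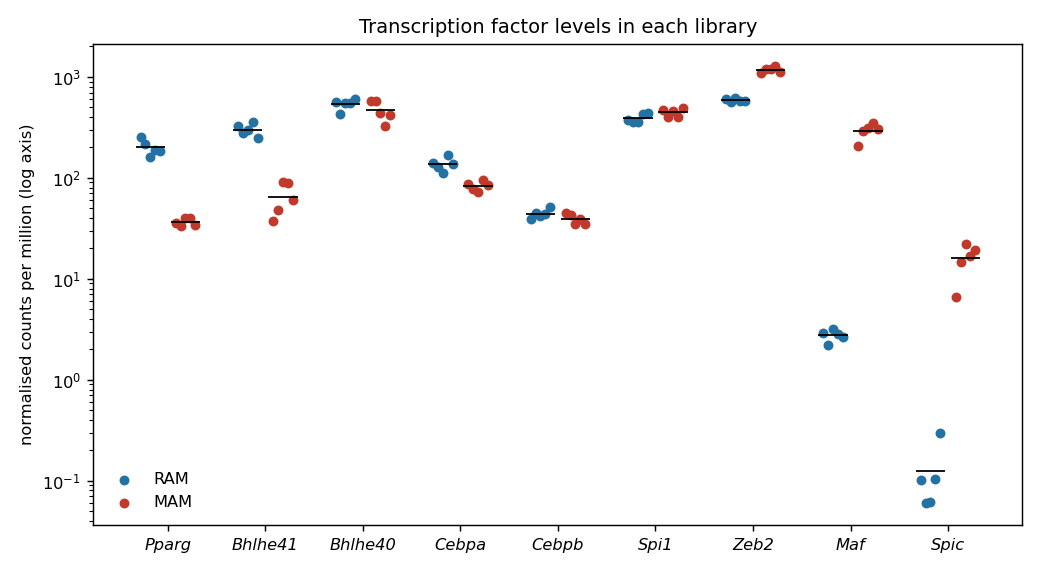
Normalised CPM (log axis) of each transcription factor gene, with 1 point per library (5 RAM in blue, 5 MAM in red) and a black line at the group mean. Pparg, Bhlhe41 and Cebpa sit lower in MAMs, Zeb2, Maf and Spic higher, and the groups overlap for Bhlhe40, Cebpb and Spi1.

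Pparg was the member that fell furthest. The 5 RAM libraries held 253, 216, 162, 187 and 185 CPM (replicates 1 to 5) and the 5 MAM libraries 35.6, 33.3, 40.3, 39.8 and 34.2. Every MAM library lay far below every RAM library, with group means of 36.6 ± 3.23 and 201 ± 35.1 CPM (SD, n = 5 each). MAMs were thus 5.48-fold lower (log2 fold change -2.45, standard error 0.120, 95% interval -2.73 to -2.18, adjusted p = 1.4e-10), and kept 18.2% of the RAM level. Its heterodimer partner Rxra fell as well, from 508 ± 24.1 CPM (SD, n = 5) in RAMs to 182 ± 13.6 (SD, n = 5) in MAMs, a log2 fold change of -1.49 (adjusted p = 1.4e-10).

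Bhlhe41 fell too. RAM libraries held 323, 277, 300.2, 356 and 249 CPM, and MAM libraries 37.1, 47.5, 91.8, 88.0 and 60.2. No MAM library reached the lowest RAM library, but the MAM libraries differed among themselves by 2.47-fold, with replicates 1 and 2 lowest. MAMs were 4.64-fold lower (log2 fold change -2.21, standard error 0.214, 95% interval -2.71 to -1.72, adjusted p = 3.7e-07). Bhlhe40, its close relative, did not pass. It held 558, 424, 553, 549 and 603 CPM in RAMs and 583, 581, 437, 326 and 415 in MAMs, so the groups overlapped widely and MAM replicates 1 and 2, lowest for Bhlhe41, were the highest MAM libraries for Bhlhe40. For Bhlhe40 the fit gave a log2 fold change of -0.20 with a 95% interval from -0.53 to 0.13 (adjusted p = 0.260). With upper-quartile scaling it was -0.37 and passed (adjusted p = 0.0341), although that scaling moved the median of all genes by -0.16.

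Cebpa, the gene of C/EBP-alpha, which drives early myeloid differentiation, fell by less. RAM libraries held 141, 129, 111, 169 and 136 CPM and MAM libraries 86.8, 78.4, 72.4, 95.7 and 85.4. The highest MAM library stayed under the lowest RAM library, though by a small gap. This was a 1.64-fold difference (log2 fold change -0.71, standard error 0.112, 95% interval -0.97 to -0.45, adjusted p = 6.5e-05). Cebpb, whose product takes part in inflammatory responses, held 39.1, 44.8, 41.5, 43.6 and 51.1 CPM in RAMs and 44.9, 43.2, 35.0, 39.1 and 35.2 in MAMs. Its groups overlapped, and the log2 fold change of -0.16 did not pass (adjusted p = 0.277, 95% interval -0.43 to 0.12). The call for Cebpb depended on the method: upper-quartile scaling gave -0.32 (adjusted p = 0.0259) and limma gave -0.23 on log2(FPKM + 1) (adjusted p = 0.0464) and -0.24 on log2(FPKM + 0.1) (adjusted p = 0.0463).

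Maf was high in MAMs and low in RAMs. MAM libraries held 207, 289.8, 313, 347 and 302 CPM, whereas RAM libraries held 2.93, 2.21, 3.19, 2.84 and 2.66. The lowest MAM library, replicate 1, was still far above every RAM library. The difference was 106-fold (log2 fold change 6.72, standard error 0.163, 95% interval 6.35 to 7.10, adjusted p = 5.7e-14). The RAM level of Maf was 0.948% of the MAM level, beside the lowest share of 0.912% among the abundant MAM genes. After 1% of the MAM level was subtracted from RAM libraries, 3 of 5 held no Maf count, so the size of the fold depends on how those reads are treated, while Maf stayed higher in MAMs.

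Spic was well above 0 in MAMs and close to 0 in RAMs. MAM libraries held 6.55, 14.7, 22.3, 16.7 and 19.4 CPM, from 322 to 1352 counts. RAM libraries held 3 to 14 counts each, 32 in all, which is 0.0601 to 0.298 CPM. Every MAM library was above every RAM library, and MAM replicate 1 was the lowest of its group by 2-fold or more. The fitted log2 fold change of 7.00 had a standard error of 0.515 (95% interval 5.81 to 8.19, adjusted p = 1.6e-08). The ratio of summed levels was 135, with an exact 95% interval of 95.5 to 198 that covers counting error only. That interval takes each count as independent, and how the reads of a pair were counted was not given in the sources used here. RAM levels were 0.787% of MAM levels, and after the 1% subtraction 4 of 5 RAM libraries held no count. On log2(FPKM + 1), which understates the change of low genes, limma gave 3.46.

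Zeb2 rose by a smaller, steady amount. RAM libraries held 607, 561, 612, 575 and 579.7 CPM, and MAM libraries 1103, 1207, 1197, 1286 and 1108. The groups were well apart. MAMs were 2.01-fold higher (log2 fold change 1.01, standard error 0.0641, 95% interval 0.86 to 1.16, adjusted p = 3.0e-09). Zeb2 stayed higher in MAMs but fell under a 2-fold change with upper-quartile scaling (0.84), and also without MAM replicate 2, MAM replicate 4, RAM replicate 2 or RAM replicate 4, each left out in turn (lowest 0.98).

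Spi1 held 377, 359, 359.6, 429.9 and 441 CPM in RAMs and 472, 400.4, 458, 400.6 and 491 in MAMs. The groups overlapped, since RAM replicates 4 and 5 lay within the MAM range. Its log2 fold change of 0.18 did not pass (standard error 0.0861, adjusted p = 0.0944), and the 95% interval of -0.022 to 0.38 does not reach a 2-fold change. Without RAM replicate 5 it was 0.22 and passed (adjusted p = 0.0491).

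**Figure D2:**
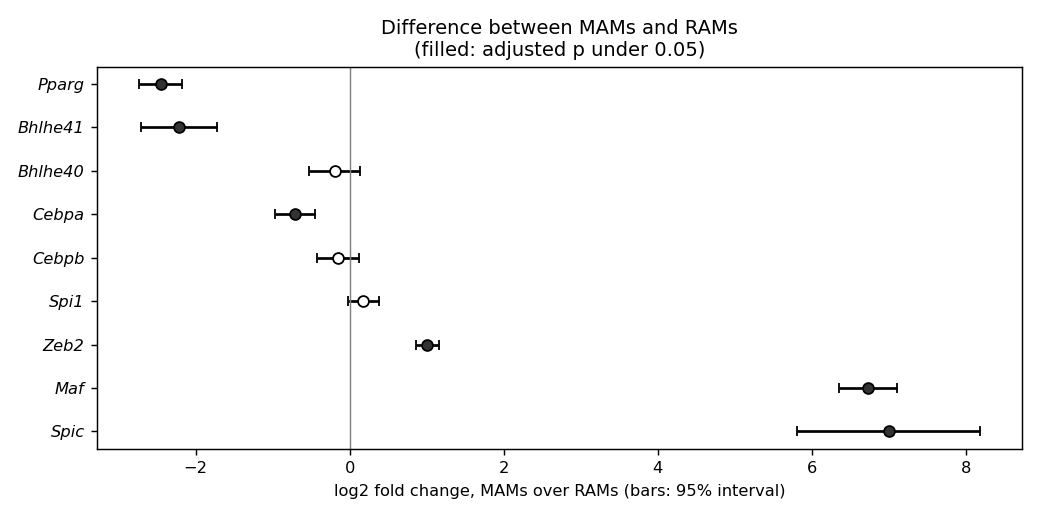
Log2 fold change of MAMs over RAMs for each gene (horizontal axis) with its 95% interval, filled points having an adjusted p under 0.05. Spic (7.00) and Maf (6.72) stand far to the right, Zeb2 is at 1.01, and Pparg (-2.45) and Bhlhe41 (-2.21) are furthest to the left.

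Relatives within the list were also set against each other within each library, where the ratio does not depend on scaling between libraries. The log2 ratio of Bhlhe40 to Bhlhe41 counts was 2.90 ± 0.883 in MAMs and 0.84 ± 0.271 in RAMs (SD, n = 5 each), a difference of 2.07. That of Cebpb to Cebpa was -1.09 ± 0.194 in MAMs and -1.63 ± 0.254 in RAMs, a difference of 0.55. That of Spi1 to Spic was 4.91 ± 0.722 in MAMs and 11.75 ± 0.759 in RAMs, a difference of -6.84, which rests on the 3 to 14 Spic counts of each RAM library and was -9.65 after the 1% subtraction. Libraries did not overlap for these 3 ratios, each with p = 0.00794 (exact permutation test, two-sided, the smallest p that 5 against 5 allow) and 0.0106 after Benjamini-Hochberg adjustment over the 4 ratios tested. Since Bhlhe40, Cebpb and Spi1 changed little, these differences largely repeat those of Bhlhe41, Cebpa and Spic and are not separate support. For Cebpb to Cebpa the gap was narrow, with the lowest MAM library at -1.29 and the highest RAM library at -1.41.

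**Figure D3:**
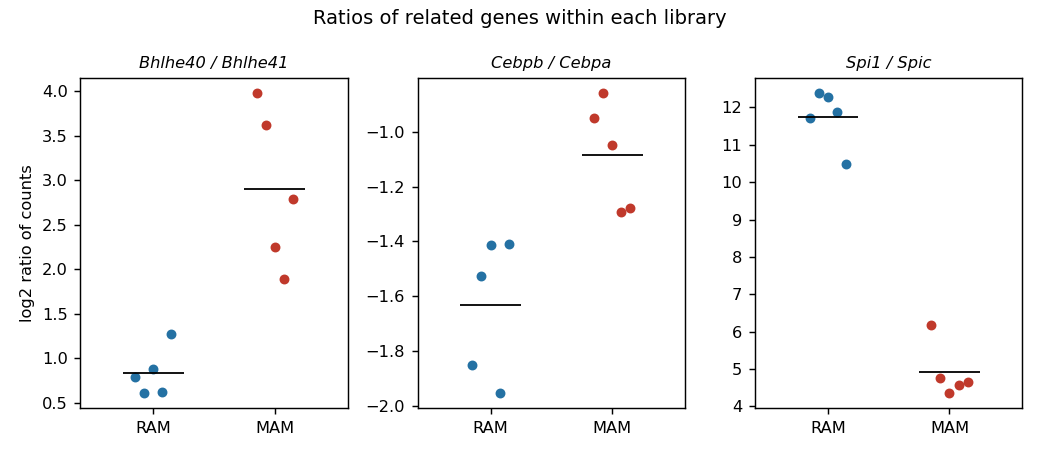
Log2 ratio of the counts of paired genes in each library (vertical axis), RAMs in blue and MAMs in red, with a line at the group mean. The groups do not overlap for Bhlhe40 to Bhlhe41, Cebpb to Cebpa and Spi1 to Spic.

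Per transcript length, the order of the members changed below its top. Spi1 led both groups, at 422 ± 35.0 FPKM in MAMs and 389 ± 43.3 in RAMs (SD, n = 5 each), and Bhlhe40 was next, at 152 ± 34.6 and 174 ± 21.4. In RAMs Pparg came after them at 106 ± 18.5 FPKM, followed by Cebpb (82.2 ± 8.34) and Cebpa (80.7 ± 12.4), which did not differ beyond their spread, then Zeb2 (56.0 ± 2.98) and Bhlhe41 (47.7 ± 6.61). Maf (0.866 ± 0.115) and Spic (0.137 ± 0.0941) were far below. In MAMs Zeb2 (115 ± 8.39 FPKM) and Maf (91.7 ± 17.0) took the places after Bhlhe40, followed by Cebpb (69.9 ± 7.56) and Cebpa (48.6 ± 5.05). Pparg (17.6 ± 1.65) was near the bottom, with Spic (12.3 ± 4.73) and Bhlhe41 (10.6 ± 4.10), which did not differ beyond their spread. So Pparg moved from rank 3 to rank 7 and Maf from rank 8 to rank 4.

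**Figure D4:**
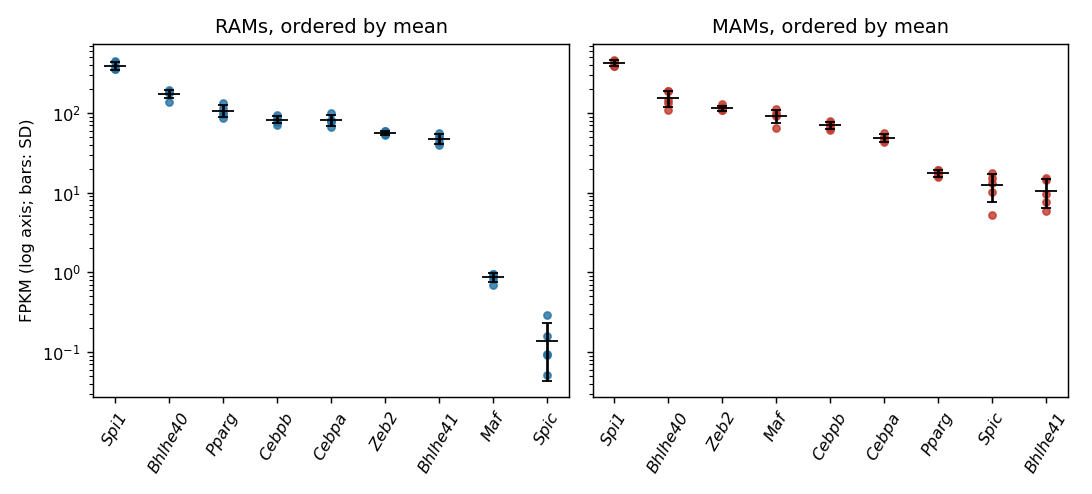
FPKM of the 9 genes (log axis), ordered by mean within RAMs (left) and MAMs (right), with points for libraries and bars for the SD. Spi1 and Bhlhe40 lead both panels, Pparg is at 106 in RAMs and 17.6 in MAMs, and Maf is at 0.866 and 91.7.

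Variation within a group differed among members. The coefficient of variation of Zeb2 was 6.48% in MAMs and 3.71% in RAMs, where the median over all tested genes was 19.5% and 16.3%. Pparg (8.82%), Spi1 (9.41%), Cebpa (10.6%) and Cebpb (11.5%) were also steadier in MAMs than the median gene. Bhlhe40 (23.9%), Bhlhe41 (37.3%) and Spic (37.5%) were more variable in MAMs than the median gene, whereas in RAMs Bhlhe40 and Bhlhe41 were at 12.5% and 13.7%. In RAMs the members above the median gene were Spic (78.8%), on 3 to 14 counts per library, and Pparg (17.5%). High variation of Spic was thus not particular to MAMs.

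Other myeloid transcription factors, a list of 68, changed in both directions. For comparison with this list and each list below, 28.9% of all tested genes were higher in MAMs and 27.3% lower. Of 60 tested, 31 were higher in MAMs, 23 lower and 6 did not pass, with a median log2 fold change of 0.30 against -0.015 over all genes. Among those that rose most were Runx3 (6.58), which acts in leukocytes, and Cebpe (5.91), the C/EBP member of granulocyte development. Those that fell most were Id1 (-3.24), an inhibitor of basic helix-loop-helix factors, Runx2 (-3.10) and Tcf7l2 (-2.60), a mediator of Wnt signals. RAM levels were 1.03% of MAM levels for Runx3 and 1.67% for Cebpe. Nr1h3, the gene of the liver X receptor that partners with RXR, was higher by 1.31.

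Genes for signals upstream of Pparg changed in both directions. Of 14 tested genes for GM-CSF and TGF-beta signals, 6 were lower, 5 higher and 3 did not pass, with a median of -0.094. The TGF-beta receptor genes Tgfbr1 (-2.16) and Tgfbr2 (-1.74) fell most, followed by Csf2rb (-1.33), the shared beta chain of the GM-CSF receptor, while its alpha chain Csf2ra was at -0.15 and did not pass (adjusted p = 0.167). Smad3 (3.48), Itgav (1.76) and Jak2 (1.36) rose. For M-CSF, the other main macrophage growth factor, all 6 tested genes were higher, led by Csf1 (5.79), its receptor Csf1r (2.02) and Fyn (1.01), with a median of 0.87. The count was 4 with upper-quartile scaling and 5 with limma on either FPKM scale.

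Genes listed as linked to each factor were counted in the same fit. Like the other lists, these were chosen with earlier results of the data known, so the counts are a description and not separate support. Of 19 tested lipid genes linked to PPAR-gamma, 11 were lower and 6 higher, with a median of -1.01. The lipid droplet genes Cidec (-6.67) and Plin1 (-4.88) and the lipase gene Mgll (-6.62) fell most, where MAMs held 0.985% of the RAM level for Cidec and 1.02% for Mgll, but Cd36 (1.80), a fatty acid receptor, Pltp (1.72) and Lipe (1.71) rose. Of 17 genes linked to MAF, 15 were higher and 2 lower, with a median of 6.32: Timd4 (6.92), a receptor for dying cells, Cd5l (6.92) and the complement gene C1qa (6.81) rose most, and Selenop (-0.90) and the sorting marker Mrc1 (-0.89) fell. RAMs held 0.820% of the MAM level for Timd4, 0.827% for Cd5l and 0.892% for C1qa, each below the 0.948% of Maf. As for Maf, these shares lie beside the lowest share of 0.912% among the abundant MAM genes. The size and order of these folds may thus depend on how such reads are treated. Of 9 tested genes linked to SPI-C, 5 were higher and 2 lower, with a median of 2.21. Cd163 (5.83), the receptor for haptoglobin and haemoglobin, Vcam1 (5.16) and the iron exporter gene Slc40a1 (4.17) rose, while the integrin gene Itgad (-6.16) and Siglece (-2.17) fell. Cd163 stands in both of these lists, and Csf1r, Csf2ra, Csf2rb, Nr1h3 and Klf2 are among further genes counted in more than 1 list.

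Of 18 tested myeloid genes linked to PU.1 and C/EBP, 10 were higher and 4 lower, with a median of 0.35. Itgam (6.61), which encodes the sorting marker CD11B and for which RAMs held 1.03% of the MAM level, Fcgr1 (3.35) and Cd14 (2.58) rose most, and Csf2rb, Lyz2 (-0.50) and Mpeg1 (-0.36) fell most. Of 10 genes tied to macrophage self-renewal and division, 4 were higher and 5 lower: Ccnd1 (5.40), Klf2 (2.30) and Ccnd2 (0.63) rose most, and the proliferation markers Mki67 (-2.77), Top2a (-2.13) and Ccna2 (-1.68) fell most, with a median of -0.15. Of 7 tested PPAR relatives and cofactors, 1 was higher (Med1, 0.39) and 5 lower, among them Ppargc1b (-1.63) and Ncoa1 (-0.65), with a median of -0.36. Of 11 tested clock genes, which BHLHE40 and BHLHE41 also regulate, 4 were higher, led by Tef (1.35), Cry2 (1.11) and Nr1d2 (0.78), and 4 lower, led by Rora (-2.34), Per2 (-1.51) and Cry1 (-1.14), with a median of -0.32. The count of higher clock genes was 2 with upper-quartile scaling, with limma on either FPKM scale, and without MAM replicate 3.

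**Figure D5:**
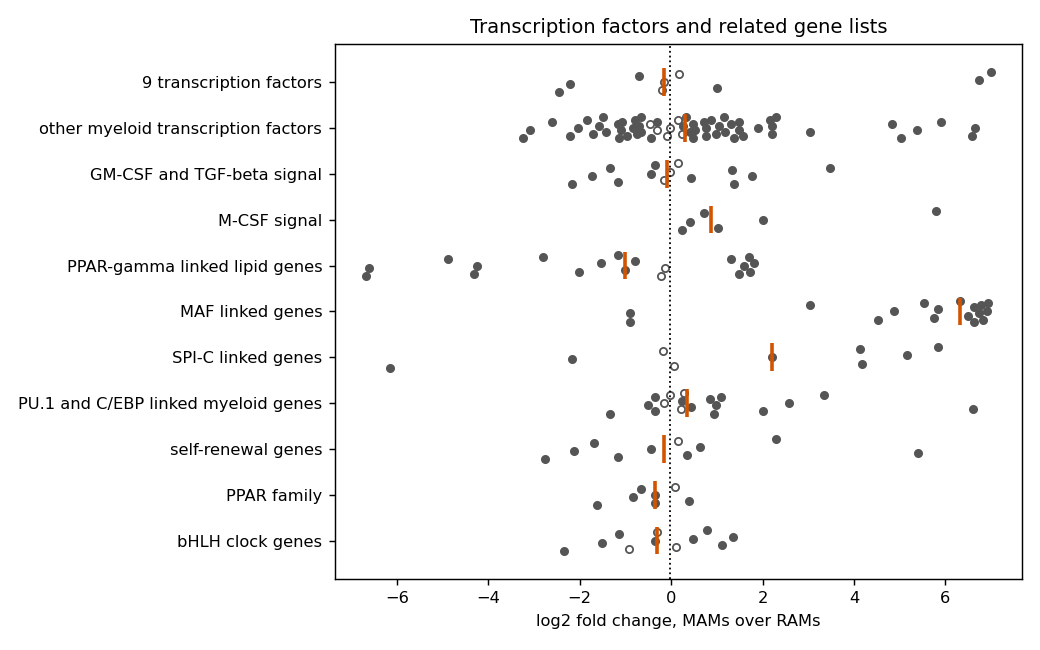
Log2 fold change of MAMs over RAMs (horizontal axis) for every tested gene of the 9 transcription factors and each related list, filled points having an adjusted p under 0.05. Orange bars mark list medians and the dotted line the median of all genes (-0.015), with the list linked to MAF furthest to the right at 6.32.

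Genes with the profile most like each member were found by the root mean square difference of centred log2 CPM over the 10 libraries, which is a description. This measure includes the gap between the groups, so a near gene is largely one of similar log2 fold change (Iffo1 -2.42 beside Pparg -2.45). It does not show that genes vary together within a group. Pparg was nearest to Iffo1 (0.157), Gpcpd1 (0.179) and Ivns1abp (0.180). Bhlhe41 was nearest to Tbc1d2 (0.106), Bcar3 (0.194) and Enpp1 (0.224), and Cebpa to Cep57 (0.113), Asap1 (0.113) and its own relative Cebpg (0.123). Zeb2 was nearest to Glg1 (0.0360), then Prkar1a (0.0707) and Rbms1 (0.0821). Maf was nearest to Marcks (0.143), C3ar1 (0.166) and Ly6a (0.191), and Spic, less closely, to Mmp14 (0.401), Mmp13 (0.406) and Tlr1 (0.423). Spi1 was nearest to Actr1a (0.0797), Dnmt3a (0.0798) and Desi2 (0.0817), Cebpb to Tial1 (0.0744), Laptm4a (0.0800) and Tmem170b (0.0911), and Bhlhe40 to Atic (0.119), Sidt2 (0.126) and Napg (0.130).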

How the data were processed

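RNA-seq libraries of 5 MAM and 5 RAM samples were analysed. Per the labels and the paper, total RNA was made into Ovation RNA-Seq System V2 libraries and read as pairs of 100 bp. The authors aligned the reads to GRCm38/mm10 (TopHat2 2.0.13), and deposited raw counts per gene of uniquely mapped reads (HTSeq 0.6.1, UCSC RefGene models) and FPKM values (Cufflinks 2.2.1). Lines naming no gene (56.5% ± 1.65 of all counts in MAMs and 63.2% ± 0.898 in RAMs, SD, n = 5 each) were left out. Testing was limited to genes whose FPKM averaged 1 or more in MAMs or in RAMs, and was done with edgeR 4.0.16 (quasi-likelihood test, TMM, R 4.3.3) with Benjamini-Hochberg adjustment over all of them and no covariates. TMM factors were 0.897 to 0.943 in MAMs and 1.07 to 1.10 in RAMs. Log2 CPM used a prior count of 2, and count ratios 0.5 added to each count. Intervals of fold changes used the standard error and the residual degrees of freedom. The labels do not say whether libraries came from separate sorts, so p-values measure the spread between these samples. No pair of libraries was identical (0 pairs).

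Alternatives were DESeq2 1.42.0, limma 3.58.1 on log2(FPKM + 1) and log2(FPKM + 0.1), RLE and upper-quartile scaling, other filters, the replicate number as a block, subtraction of 1% of the other group's level, and each library left out. Leaving the genes of the sorting gate out of marker lists was added after seeing the data. Named genes were the 9 members, up to 3 highest and 3 lowest passing genes of each list, Rxra, Nr1h3, Csf1r and receptors of GM-CSF and TGF-beta, the most abundant markers, and the 3 genes of nearest profile. Some results that this rule or the design covered, 1 of 4 ratios among them, are not reported here. Members and lists were chosen with earlier results of these data known. Zeb2os was named for its overlap with Zeb2.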

Additional observations from a re-analysis of the deposited data

Results flagged for a closer look

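In 24 groups of 5 values (each member's CPM and each ratio, in MAMs and in RAMs), 2 had a library whose gap to its nearest neighbour took up most of the range, where chance gives about 1 in 20. The number flagged is thus close to that rate, and the groups are not independent, since the ratios use the members' own counts. RAM replicate 5 held 0.298 CPM of Spic, against 0.0601 to 0.104 in the other RAM libraries, and this difference rests on 14 counts. MAM replicate 1 had a log2 ratio of Spi1 to Spic of 6.17, against 4.36 to 4.76 in the other MAM libraries.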

How the results depend on the processing

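Every member kept its direction under 9 alternatives and with each library left out. Upper-quartile scaling gave 5 lower members in place of 3, through Cebpb (-0.32) and Bhlhe40 (-0.37), and turned the split of calls over all genes from 51.4% higher and 48.6% lower to 40.3% and 59.7%. Cebpb also passed with limma on log2(FPKM + 1) (-0.23) and log2(FPKM + 0.1) (-0.24), and the cause was not tested. With each library left out, Spi1 ran from 0.14 to 0.22, passing only without RAM replicate 5. Ranges over the other fits were widest where RAMs were near 0, from 5.62 to 12.4 for Maf and from 3.46 to 9.10 for Spic. Each was lowest with limma on log2(FPKM + 1) and highest after the 1% subtraction. There the value depends on the prior count of the edgeR fit, which was left at its default and is not the 2 used for log2 CPM. The Spi1 to Spic difference ran from -9.65 after that subtraction to -6.50 with FPKM. The replicate numbers did not pair the samples (same-numbered deviations correlated at -0.037 to 0.029, and 2 of 5 MAM libraries correlated best with their own number). With the replicate block, 3205 genes were higher and 3100 lower, against 3344 and 3160 without it, and no member's call changed. Depth limits Spic in RAMs, where 3 to 14 counts per library stand behind each value.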
